A study of Homo sapiens with 4 samples.

Results

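SNRNP40 is a WD-repeat protein of the U5 small nuclear ribonucleoprotein, the part of the spliceosome that holds the exons during splicing. The genes described here are those whose FPKM, summed over all transcripts listed for a gene symbol, was more than 2-fold higher with SNRNP40 siRNA than with control siRNA. FPKM counts sequenced fragments, scaled by the length of the transcript and by the mapped fragments of the library. Genes entered the comparison when the mean of the 2 conditions was at least 1 FPKM and both were above 0, and 100 of the 12334 genes compared passed the threshold (0.811%), against 81 lowered by the same fold (0.657%). The members were chosen by this measured ratio, so their direction and size are a description and carry no test.

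The cells were LV-M100, a clonal subline of the breast cancer line MDA-MB-231 with low cell-to-cell variability, so every value stems from 1 clone. Cells received siRNA by Lipofectamine, and total RNA was taken 48 h later, depleted of ribosomal RNA and sequenced, in 4 libraries. The siControl libraries received the negative control siRNA NC1 or the BLOCK-iT Fluorescent Oligo, and the siSNRNP40 libraries received siSNRNP40 #1 or siSNRNP40 #2, whose printed strands were the following.

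siSNRNP40 #1: ggaauagacaaugauauc
siSNRNP40 #2: ggauuugaccgacugaua

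Both strands were found whole in transcripts of SNRNP40 and of its pseudogene SNRNP40P1, and in none of the 87 members matched to GENCODE transcripts. Only exact matches of all 18 bases were searched, so shorter matches in the members were not examined. The deposited table gives 1 value per condition, pooled over its 2 libraries by the authors. No value below therefore has a replicate error, its read depth is unknown, and whether a difference exceeds the spread between libraries, or came from both siRNAs, cannot be seen from these pooled values and was not tested. In bulk RNA, more cells that express a gene and more RNA of it per cell cannot be told apart. SNRNP40 itself was listed at 6.12 FPKM with siSNRNP40 and 40.4 FPKM with siControl (log2 ratio -2.72). All 10 markers listed for a breast epithelial line of mesenchymal basal type passed the filter, among them the keratin genes KRT7, KRT8 and KRT18. VIM stood at 750.1 FPKM and CD44 at 116 FPKM in siControl. Of 8 luminal markers ESR1, PGR, FOXA1 and CDH1 were under 0.1 FPKM and TFF1 was listed at 0. The other luminal markers passed the filter, EPCAM at 10.01 and 10.6 FPKM in siSNRNP40 and siControl, ERBB2 at 7.42 and 6.56 FPKM and GATA3 at 1.18 and 1.32 FPKM. Of 9 leukocyte markers, CD68 (44.4 and 40.9 FPKM in siSNRNP40 and siControl) and LYZ (10.2 and 8.46 FPKM) passed the filter, and PTPRC and MS4A1 were listed at 0 in both conditions. The leukocyte markers summed to 55.1 FPKM with siSNRNP40 and 49.8 FPKM with siControl, and none of the markers was a member.

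Epithelial tumour cells can make the inflammatory messengers that immune cells make. NF-kB, a dimeric transcription factor held in the cytoplasm by IkB proteins until a stimulus frees it, drives chemokines, cytokines, adhesion molecules and its own inhibitors. Interferons act through the JAK and STAT proteins on a partly overlapping set of genes, which includes CXCL10 and CXCL11. MicroRNAs and small nucleolar RNAs are mostly cut out of longer transcripts, often out of introns, and act in silencing of mRNAs and in modification of ribosomal and spliceosomal RNA.

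Of the 100 raised genes, 53 were protein-coding, 29 were loci of small RNAs, 7 were read-through genes that join neighbouring genes, 3 were pseudogenes, 2 were other noncoding genes, and 6 had symbols without a RefSeq match. The median log2 ratio of the members was 1.34, against 0.0034 over all genes compared. Among the members 21 were over 4-fold and 7 over 8-fold higher. Most members were weakly expressed. Their median level over the 2 conditions was 2.15 FPKM, against 10.7 FPKM for all genes compared, and 46 members lay between 1 and 2 FPKM. In 44 members the siControl value was under 1 FPKM, so that they passed the filter through the siSNRNP40 value, and 56 members were at 1 FPKM or more in both conditions. At a mean of at least 5 FPKM there were 25 members and at least 10 FPKM there were 12. Of genes at 1 to 2 FPKM, 3.37% were raised and 3.0% lowered, and of genes at 10 to 50 FPKM 0.170% were raised and 0.276% lowered. Large ratios of either sign were thus more frequent among weakly expressed genes. With both conditions scaled to the same upper quartile the split was 79 raised and 108 lowered genes.

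**Figure D1:**
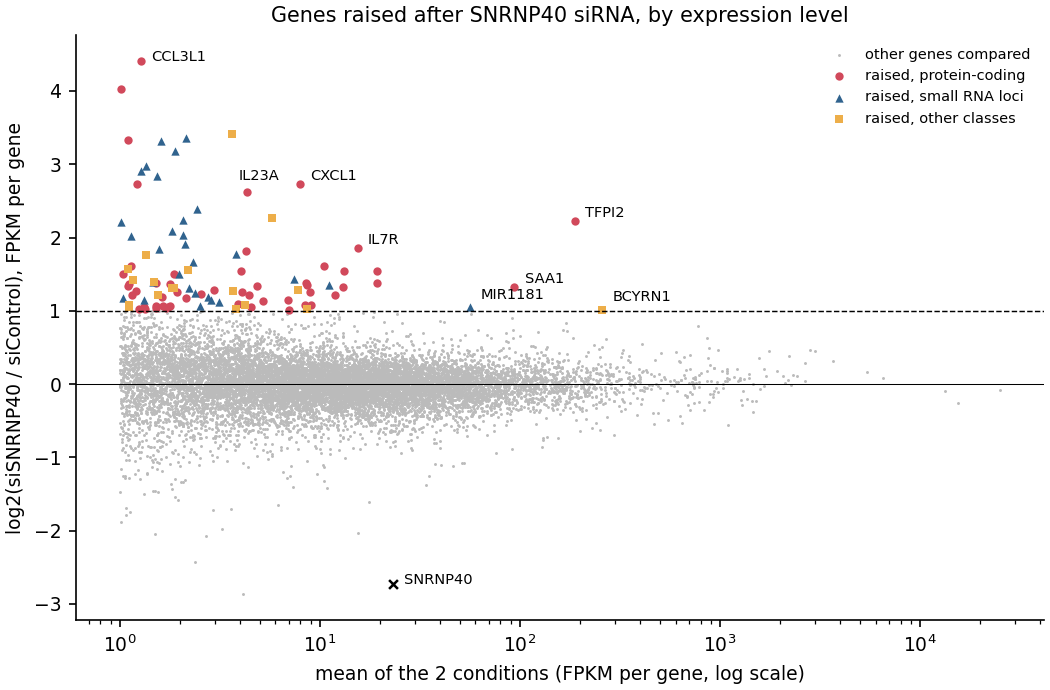
Each point is a gene, with its mean FPKM over the 2 conditions on a log scale against the log2 ratio of siSNRNP40 to siControl. Colours and shapes mark the classes of the 100 raised genes above the dashed threshold of 1. Most of them sit at 1 to 10 FPKM, TFPI2, SAA1, MIR1181 and BCYRN1 lie above 50 FPKM, and SNRNP40 (cross) lies at -2.72.

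The plot of log2 ratio against level shows that the cloud of all genes narrowed with rising expression, with few members standing clear of it at high levels. Just inside the threshold lay TNFRSF1B (log2 ratio 1.006), BCYRN1 (1.017), ADAMTSL5 (1.020), LOC100128573 (1.021) and LOC553103 (1.023). Just outside it lay PSORS1C2 (0.998), the snoRNA locus SNORD88B (0.996), the interleukin-1 gene IL1A (0.994), EAF2 (0.992) and SLC2A11 (0.991).

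Chemokines, the small secreted proteins that attract leukocytes, were the family most often raised among the gene lists examined. Of 20 chemokine genes on the list, 8 were expressed enough to be compared. Of these 8, 5 were raised, against 0.811% of all genes compared, and none on the list was lowered over 2-fold. Their median log2 ratio was 1.48, which rests largely on the members, chosen by this ratio. All 8 lay above 0, the 5 members by choice, as did 50.5% of all genes compared. CCL20 passed the filter only through its siSNRNP40 value. Outside the list, CXCL14 was lowered (-1.16) and CCL28 lay below 0 (-0.54). The lists were chosen with earlier results of these data known, so these shares depend on that choice. CXCL1, a ligand of the neutrophil receptor CXCR2, stood at 2.09 FPKM in siControl and 13.9 FPKM in siSNRNP40 (log2 ratio 2.73). IL8 (CXCL8), the classical neutrophil attractant, stood at 5.16 FPKM in siControl and 15.7 FPKM in siSNRNP40 (1.61). CCL20, which attracts CCR6-bearing lymphocytes and dendritic cells, stood at 0.199 FPKM in siControl and 2.00 FPKM in siSNRNP40 (3.33). These 3 genes differed widely in siControl level but were all low to moderate in absolute terms. CXCL10, a ligand of CXCR3, a receptor on activated T cells, was listed at 1.89 and 6.67 FPKM in siControl and siSNRNP40 (1.82). CXCL11, another ligand of CXCR3, was listed at 4.89 and 12.4 FPKM in siControl and siSNRNP40 (1.35).

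The other compared chemokines stayed under the threshold. CXCL2 was listed at 3.30 FPKM in siSNRNP40 and 1.89 FPKM in siControl (log2 ratio 0.80), CXCL16 at 1.77 and 1.03 FPKM (0.78) and CCL5 at 25.7 and 17.1 FPKM (0.59). CXCL3, too weak for the filter, was listed at 1.44 FPKM in siSNRNP40 and 0.335 FPKM in siControl. Outside the list, CXCL14 was lower in siSNRNP40, at 0.954 FPKM against 2.13 FPKM (-1.16), and CCL28 stood at 1.77 and 2.57 FPKM (-0.54). CCL3L1, a near copy of the macrophage chemokine gene CCL3, had the largest log2 ratio of all members (4.404), at 2.44 FPKM in siSNRNP40 and 0.115 FPKM in siControl. Its siSNRNP40 sum consisted of the same value, 1.22 FPKM, listed at each of 2 loci. With 1 of these loci counted alone, its mean would lie under 1 FPKM and it would not be a member. CCL3 was listed at 0.847 FPKM in siSNRNP40 and at 0 in siControl. How fragments were shared among these near-identical genes is uncertain.

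On chromosome 4 of hg19 the raised chemokines formed neighbouring pairs. IL8 (chr4:74606236-74609433) and CXCL1 (chr4:74735110-74737025), both on the plus strand, were 125677 bases apart with no other compared gene between them. CXCL10 (chr4:76942271-76944650) and CXCL11 (chr4:76954835-76962568), both on the minus strand, were 10185 bases apart. Over the 53 protein-coding members, the nearest compared gene on each side gave 106 distinct neighbours, whose median log2 ratio was 0.067. Of these neighbours 8 were themselves members, as were 0.811% of all genes compared. These 8 are the chemokine pairs, the serum amyloid genes SAA1 and SAA2, and GBP5 with LRRC8C, which lie 360088 bases apart. Each pair is counted from both of its genes, and the near-identical transcripts of SAA1 and SAA2 make their separate values uncertain.

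The promoters of the CXC chemokines are shown because letters close to the binding consensus of NF-kB recur in them. Each run covers 250 bases before to 50 bases after the start of the RefSeq transcript on the GRCh38.p14 build, 5′ to 3′ on the strand of the gene. Capitals mark GGNNNTTCC or its reverse complement, a form of the NF-kB site in which N is any base.

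CXCL1, chr4:73869143-73869442, plus strand: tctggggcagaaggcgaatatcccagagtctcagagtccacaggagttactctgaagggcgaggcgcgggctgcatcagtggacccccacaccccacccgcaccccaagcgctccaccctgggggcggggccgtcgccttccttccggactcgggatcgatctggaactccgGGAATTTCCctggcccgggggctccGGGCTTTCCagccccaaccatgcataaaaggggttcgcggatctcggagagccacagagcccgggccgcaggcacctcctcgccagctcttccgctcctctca
IL8, chr4:73740319-73740618, plus strand: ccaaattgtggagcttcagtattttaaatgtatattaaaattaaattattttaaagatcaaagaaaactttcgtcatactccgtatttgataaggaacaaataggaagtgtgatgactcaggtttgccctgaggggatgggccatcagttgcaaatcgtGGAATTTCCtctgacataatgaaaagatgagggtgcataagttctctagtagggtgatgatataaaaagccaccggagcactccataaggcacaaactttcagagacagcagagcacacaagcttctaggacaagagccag
CXCL10, chr4:76023448-76023747, minus strand: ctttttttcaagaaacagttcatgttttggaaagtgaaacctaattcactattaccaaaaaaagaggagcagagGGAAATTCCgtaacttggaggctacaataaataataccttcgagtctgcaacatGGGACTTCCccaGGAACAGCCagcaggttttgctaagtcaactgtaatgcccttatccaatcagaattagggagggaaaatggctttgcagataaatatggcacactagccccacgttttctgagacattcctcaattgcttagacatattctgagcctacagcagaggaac
CXCL11, chr4:76036021-76036320, minus strand: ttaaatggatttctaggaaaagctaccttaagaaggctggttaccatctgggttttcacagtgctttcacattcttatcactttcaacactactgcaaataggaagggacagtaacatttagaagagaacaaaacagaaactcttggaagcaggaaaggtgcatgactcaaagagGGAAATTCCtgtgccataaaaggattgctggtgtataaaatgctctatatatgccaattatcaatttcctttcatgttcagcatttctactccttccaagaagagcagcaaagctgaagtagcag

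CXCL1 held 2 such runs, starting 78 and 53 bases before the transcript start, and IL8 held GGAATTTCC starting 91 bases before it. CXCL10 held 3 and CXCL11 held 1, GGAAATTCC, which also occurs in CXCL10 and in ICAM1. Promoters of 37 of the 53 protein-coding members were found in RefSeq, with 45 windows, and 20 of the windows (44.4%) held the letters. Of 13329 windows of all protein-coding genes compared 23.1% held them, and of all 35116 windows 20.1%. For the members on the immune lists the share was 9 of 12 windows (75%), and for the other protein-coding members 11 of 33 (33.3%). The immune lists hold genes known as NF-kB targets, so their share is not independent of the choice of list. The AP-1 letters TGANTCA were found in 8 of the 45 windows (17.8%), against 5.05% of those of all protein-coding genes compared, 7.71% of all windows and 7 of 59 windows of lowered protein-coding genes (11.9%). For the NF-kB letters the lowered genes gave 14 of 59 windows (23.7%). The interferon response letters GAAANNGAAA were found in 3 of the 45 (6.67%, against 3.0%), those of CXCL10, ISG20 and TNFRSF1B. These shares were searched on both strands and describe letters, not binding.

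Cytokine genes contributed 2 members among 18 compared, against 0.811% of all genes compared. None was lowered over 2-fold, and the median log2 ratio was 0.35. IL23A, the subunit that distinguishes interleukin-23, was listed at 7.43 FPKM in siSNRNP40 and 1.21 FPKM in siControl (log2 ratio 2.62). CSF2, which encodes the granulocyte and macrophage growth factor GM-CSF, was listed at 7.16 and 3.28 FPKM (1.13). IL6, a main inflammatory cytokine, remained under the threshold at 15.1 and 8.47 FPKM (0.83), as did IL1A at 1.80 and 0.903 FPKM. The list was mixed, with 11 genes above 0 and 7 below, among them the macrophage growth factor CSF1 at 26.2 and 35.0 FPKM (-0.42). Some other cytokine genes were too weak for the filter. TNF was listed at 0.0467 FPKM in siSNRNP40 and 0.0178 FPKM in siControl, IL1B at 0.284 and 0.521 FPKM, and the interferon gene IFNB1 at 0 in both. LTB, which encodes lymphotoxin-beta and was under the filter, was listed at 1.47 and 0.386 FPKM. Of growth factors outside the list, TGFB3, a ligand of the TGF-beta receptors, was a member at 1.603 and 0.690 FPKM (1.22).

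Receptors of the cytokine and tumour necrosis factor families were among the more strongly expressed members. IL7R, shared by the receptors for interleukin-7 and TSLP, was listed at 24.2 FPKM in siSNRNP40 and 6.71 FPKM in siControl (log2 ratio 1.85). IL27RA, the receptor chain for interleukin-27, was listed at 6.94 and 2.75 FPKM (1.34). TNFRSF1B, the second receptor for TNF, stood at 9.32 and 4.64 FPKM, nearest of all members to the threshold. Each of these receptor genes had a single listed transcript.

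NF-kB subunits, inhibitors and feedback genes gave 2 members among 21 compared, against 0.811% of all genes compared. None was lowered over 2-fold, and the median log2 ratio was 0.40. TRAF1, an adaptor of TNF receptors and itself an NF-kB target, was listed at 12.3 FPKM in siSNRNP40 and 4.75 FPKM in siControl (log2 ratio 1.37), and all 3 of its transcripts were higher. ICAM1, the adhesion molecule that binds leukocyte integrins, was listed at 11.4 and 5.42 FPKM (1.08). Counting these, 18 of the 21 genes (85.7%) lay above 0, against 50.5% of all genes compared. Under the threshold, SOD2, a mitochondrial superoxide dismutase, reached 119 and 63.6 FPKM (0.91). TNFAIP3, the feedback inhibitor A20, reached 3.64 and 1.98 FPKM (0.88). NFKB2, RELB and NFKBIB each had a log2 ratio of 0.70, and NFKBIA, which encodes IkB-alpha, had 0.44. RELA (0.04) and REL (0.10) were near 0, and BIRC2 (-0.61), IER3 (-0.34) and TNFAIP2 (-0.08) were below it. Among members outside the list, PELI1, an E3 ubiquitin ligase of Toll-like and interleukin-1 receptor signalling, was listed at 6.10 and 2.95 FPKM (1.05).

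ICAM1, chr19:10270870-10271169, plus strand: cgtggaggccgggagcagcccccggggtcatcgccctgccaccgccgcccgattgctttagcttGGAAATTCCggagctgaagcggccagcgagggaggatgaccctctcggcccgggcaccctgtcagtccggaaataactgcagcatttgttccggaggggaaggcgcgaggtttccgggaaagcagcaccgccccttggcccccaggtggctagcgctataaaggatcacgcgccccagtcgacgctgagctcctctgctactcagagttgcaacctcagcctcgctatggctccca

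The ICAM1 promoter is shown beside those of the chemokines because it carries the run GGAAATTCC found in CXCL10 and CXCL11, here 186 bases before the start.

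**Figure D2:**
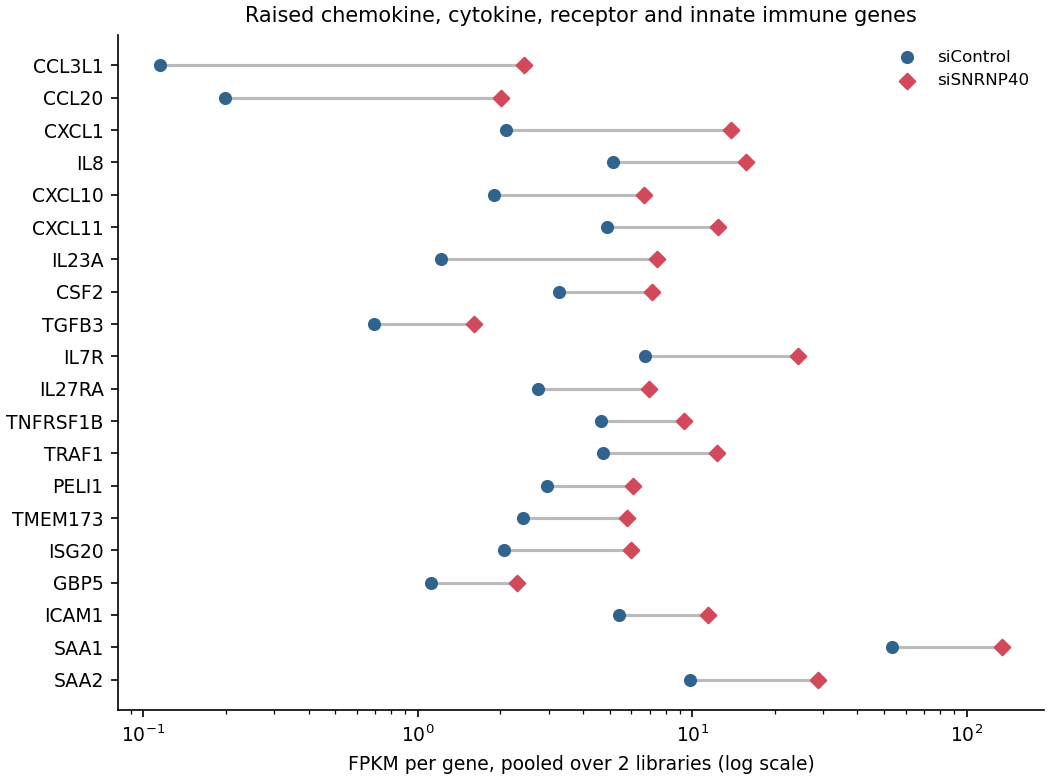
FPKM per gene in siControl (circles) and siSNRNP40 (diamonds) on a log scale for 20 raised genes of chemokines, cytokines, receptors, adaptors and innate immune effectors. Each symbol is the authors' pooled value of 2 libraries and has no error. SAA1 spans 53.5 to 134 FPKM, and CCL3L1 and CCL20 start under 0.2 FPKM.

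Of all genes compared, 0.811% were raised and 50.5% lay above 0, so 0 or 1 member does not set a list of 60 genes or fewer apart. Interferon-stimulated effectors and RNA sensors gave 1 member among 60 compared, with a median log2 ratio of 0.23 and 44 genes above 0 (73.3%). That member was ISG20, an exonuclease for single-stranded RNA, at 6.001 FPKM in siSNRNP40 and 2.05 FPKM in siControl (1.55). Of STAT, IRF and JAK signal genes 1 of 22 was raised and the median was 0.02. The member was TMEM173, which encodes STING, the adaptor of cytosolic DNA sensing, at 5.77 and 2.41 FPKM (1.26). IRF1, an interferon regulatory transcription factor, was listed at 15.4 and 14.4 FPKM (0.10). None of the 19 antigen presentation genes was a member, though 18 of them lay above 0 and their median was 0.24. GBP5, a guanylate-binding protein induced by interferon-gamma and in no list, was a member at 2.30 and 1.12 FPKM (1.04), with 1 of its 2 transcripts higher and the other lower. Its relatives GBP1 (0.09), GBP2 (-0.10) and GBP3 (-0.17) lay near 0 and GBP4 was at 0.69.

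**Figure D3:**
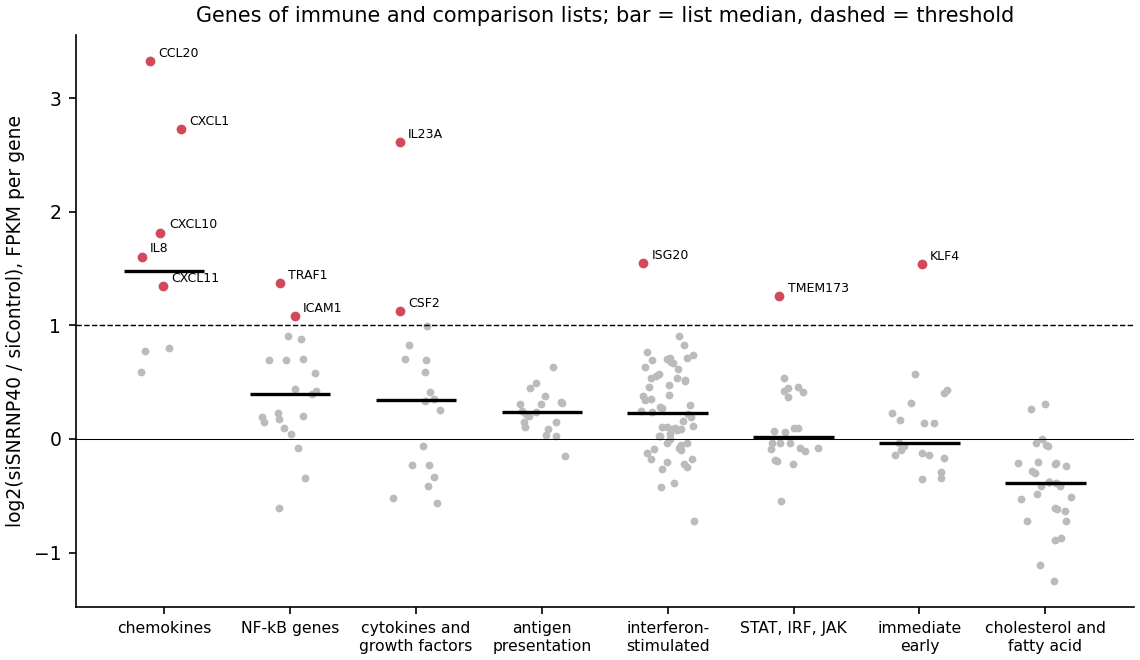
Log2 ratio of siSNRNP40 to siControl for every compared gene of 8 lists, with members in red, the list median as a bar and the threshold dashed. The chemokine median is 1.48, the medians of the other immune lists lie between 0.02 and 0.40, and that of cholesterol and fatty acid genes is -0.39. The chemokines CXCL14 and CCL28, both below 0, are outside the list.

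The strip plot of the lists shows members as single points above broad groups, except in the chemokine list, where they make up the upper 5 of 8. In all, 11 of the 100 members belonged to the 6 immune lists, 5 of them to the chemokine list. These lists had 8 to 60 compared genes each and were chosen with earlier results of these data known. Immediate early genes gave 1 member of 19 compared, KLF4, a zinc-finger transcription factor, at 19.7 FPKM in siSNRNP40 and 6.78 FPKM in siControl (log2 ratio 1.54), with a list median of -0.03. BCL2 family genes gave 1 of 15, the pro-apoptotic BIK at 1.58 and 0.625 FPKM (1.34), with a list median of 0.16. The remaining 13 of the 15 lists outside the immune ones held no member, and their medians ran from -0.39 for cholesterol and fatty acid synthesis to 0.16 for replication-dependent histones. These lists had 8 to 41 compared genes each, and 0.811% of all genes compared were members. Neither the counts of 0 nor the single members KLF4 and BIK therefore set a list apart.

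Other members with roles in innate defence were found outside the lists. SAA1 and SAA2 encode serum amyloid A, an acute-phase protein, and lie 17592 bases apart on chromosome 11. SAA1 was listed at 134 FPKM in siSNRNP40 and 53.5 FPKM in siControl (log2 ratio 1.33), and SAA2 at 28.6 and 9.79 FPKM (1.55). Their transcripts are nearly identical, so their separate values are uncertain. CH25H, which makes 25-hydroxycholesterol, was listed at 1.597 and 0.622 FPKM (1.36). IL4I1, a secreted amino acid oxidase, was listed at 2.13 and 0.321 FPKM (2.73). PLA2G4C, a cytosolic phospholipase, was listed at 3.56 and 1.52 FPKM (1.23).

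TFPI2, a secreted inhibitor of serine proteases of the extracellular matrix, was the most abundant protein-coding member. It was listed at 309 FPKM in siSNRNP40 and 66.1 FPKM in siControl (log2 ratio 2.23) as a single transcript. Its promoter is printed for the highest-level protein-coding member, with capitals as before.

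TFPI2, chr7:93890704-93891003, minus strand: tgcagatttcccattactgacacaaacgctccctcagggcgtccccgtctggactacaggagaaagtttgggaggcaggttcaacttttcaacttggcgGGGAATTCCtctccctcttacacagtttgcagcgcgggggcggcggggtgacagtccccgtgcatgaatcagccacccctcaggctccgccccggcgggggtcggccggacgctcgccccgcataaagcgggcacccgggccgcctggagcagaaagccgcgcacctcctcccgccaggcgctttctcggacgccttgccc

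The run GGGAATTCC started 151 bases before the transcript start, and an AP-1 match lay 87 bases before it. PRSS3, which encodes mesotrypsin, had the second largest log2 ratio (4.03), at 1.91 FPKM in siSNRNP40 and 0.117 FPKM in siControl. Its mean of 1.01 FPKM just passed the filter. The sum came almost wholly from transcripts at 1.09 and 0.823 FPKM in siSNRNP40, listed at 0.117 and 0 FPKM in siControl. Other secreted, receptor or membrane members were OXTR, the oxytocin receptor, at 9.53 and 4.32 FPKM (1.14), ST8SIA4, a polysialyltransferase, at 12.6 and 5.25 FPKM (1.26) and TMEM132A at 6.22 and 2.68 FPKM (1.21). RRAD, a small GTPase of the RGK family, was listed at 5.32 and 2.49 FPKM (1.10). Among enzymes, DOLPP1, which recycles dolichyl pyrophosphate for protein glycosylation, was listed at 16.6 and 7.11 FPKM (1.22) and DGAT2, of triglyceride synthesis, at 2.26 and 0.991 FPKM (1.19). ALKBH2, a DNA dealkylation repair enzyme, was listed at 28.05 and 10.8 FPKM (1.38), with 6 of its 8 transcripts higher and 2 lower. Further protein-coding members were low, such as TSPAN2, RHEBL1, KCTD14, RBM24, CHMP4C, CGN and GSDMC, all under 5 FPKM in both conditions. RSC1A1, DCDC2B, EFR3B, FAM55C, DMBX1, MPP4, C19orf35 and GCOM1 had log2 ratios from 1.04 for GCOM1 to 1.61 for RSC1A1.

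Gene structure was not used to choose the members. Of the 52 protein-coding members with a gene model, 2 had a single exon (3.85%), against 2.09% of protein-coding genes compared. The median exon number was 6.5 against 9, the median transcript length 2325 against 3353 bases and the median span of the gene 17817 against 33558 bases. Protein-coding genes compared with a mean under 5 FPKM had medians of 9 exons and 31594 bases of span, so that the members were also shorter than other weakly expressed genes. Lowered protein-coding genes had medians of 7 exons and 39194 bases. Whether these differences exceed chance was not tested. Of all 86 members with an exon model 27 had a single exon (31.4%, against 4.89% of all genes compared), and 24 of the 27 were small RNA loci. By chromosome, the highest shares of members were 11 of 580 genes compared on chromosome 5 (1.90%), 12 of 848 on chromosome 19 (1.42%) and 15 of 1265 on chromosome 1 (1.19%). Of all genes compared 0.811% were members. None lay among the 220 genes compared on chromosome 13, the 163 on chromosome 18 or the 118 on chromosome 21. Whether these shares differ from that of all genes was not tested.

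MicroRNA loci had the highest share of raised genes of the large classes. Of 48 compared, 19 were raised (39.6%) and 5 lowered (10.4%), with a median log2 ratio of 0.48. Only 5 of the 19 were at 1 FPKM or more in siControl, so the others passed the filter through their siSNRNP40 value. Loci at 0 in 1 condition were not compared, and more of these were at 0 in siSNRNP40 alone (67) than in siControl alone (26). The values were small. All raised loci but MIR1181 lay under 5 FPKM in both conditions. MIR1181, which overlaps an exon of the chaperone gene CDC37, was listed at 75.7 FPKM in siSNRNP40 and 36.7 FPKM in siControl (1.05). The library was made from total RNA fragments and not from size-selected small RNA, so these values stand for fragments at the hairpin locus and not for mature microRNA. Mature sequences, 1 or both arms, are printed for the 5 raised loci with the largest ratios among those with a RefSeq sequence and for MIR454, whose seed is shared with loci described next, with the seed, bases 2 to 8, in capitals, since the seed largely sets the targets.

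hsa-miR-645: uCUAGGCUgguacugcuga
hsa-miR-590-5p: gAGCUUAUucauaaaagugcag
hsa-miR-590-3p: uAAUUUUAuguauaagcuagu
hsa-miR-138-5p: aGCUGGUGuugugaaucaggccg
hsa-let-7e-5p: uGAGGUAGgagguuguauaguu
hsa-miR-4774-5p: uCUGGUAUguaguagguaauaa
hsa-miR-454-3p: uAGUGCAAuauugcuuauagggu

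RefSeq gave 20 mature sequences for 15 of the 19 loci, with 20 distinct seeds, so no seed was shared between members. The seed of hsa-let-7e-5p is that of the let-7 family. The let-7e locus MIRLET7E was listed at 2.69 FPKM in siSNRNP40 and 0.376 FPKM in siControl (log2 ratio 2.84), while other let-7 loci were lower in siSNRNP40, such as MIRLET7A2 at 3.74 and 7.11 FPKM and MIRLET7I at 0.802 and 2.20 FPKM. The seed of hsa-miR-590-5p is that of hsa-miR-21-5p. MIR590 was listed at 2.41 and 0.306 FPKM (2.98), and MIR21 at 0 in both conditions. The seed of hsa-miR-454-3p is that of hsa-miR-301a-3p and hsa-miR-130b-3p. MIR454 was listed at 2.93 and 1.03 FPKM (1.503), and MIR301A and MIR130B at 0. MIR130A, of the same family as MIR130B, was at 0 in siSNRNP40 and 1.07 FPKM in siControl. MIR138-1, 1 of 2 loci of hsa-miR-138-5p, was listed at 2.25 and 0.30 FPKM (2.91), and MIR138-2 at 0. MIR941-4 shares its mature sequence with other loci, and it was listed at 3.83 and 1.68 FPKM (1.19). Among those loci MIR941-1 was at 4.52 and 4.14 FPKM, MIR941-2 at 0.215 and 1.29 FPKM and MIR941-3 at 1.26 and 0.772 FPKM. MIR645 was listed at 3.92 and 0.381 FPKM (3.36) and lies outside genes of its strand. MIR4774, in an intron of CERS6, was listed at 4.10 and 0.782 FPKM (2.39). MIR3655, over an exon of IK, was listed at 1.67 and 0.361 FPKM (2.21), MIR4492 at 1.82 and 0.448 FPKM (2.02), MIR4292 at 3.33 and 0.888 FPKM (1.91) and MIR1207 at 2.44 and 0.683 FPKM (1.84). MIR1246, MIR4435-1, MIR940, MIR5095 and MIR3916 had log2 ratios from 1.14 to 1.39.

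The lowest values listed for microRNA loci differed between the conditions. Of loci with a single listed transcript, 118 were above 0 in siControl and 79 in siSNRNP40. In siControl 64 of the 118 were under 0.6 FPKM, and in siSNRNP40 3 of the 79 were. The 25th percentile of the values above 0 was 0.351 FPKM in siControl and 0.837 FPKM in siSNRNP40, and the medians were 0.499 and 1.61 FPKM. Of 1197 microRNA loci listed, 67 were at 0 in siSNRNP40 alone and 26 in siControl alone, and the FPKM of all loci summed to 417 in siSNRNP40 and 358 in siControl. Among the 19 members, 7 had a siControl value under 0.6 FPKM. With both values at 1 FPKM or more, a bound set after the values had been seen, 5 of 29 microRNA loci were raised and 2 lowered. With both at 2 FPKM or more, 1 of 20 was raised, MIR1181, 2 were lowered, and the median log2 ratio was -0.15. Unrelated loci also shared exact values. MIR645 and MIR3916 were both listed at 3.92 FPKM in siSNRNP40, and MIR3607 and MIRLET7E both at 0.376 FPKM in siControl. In all, 6 small RNA members shared an exact value with some other small RNA locus. The part of these lowest values in the ratios of the other microRNA members was not tested.

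**Figure D4:**
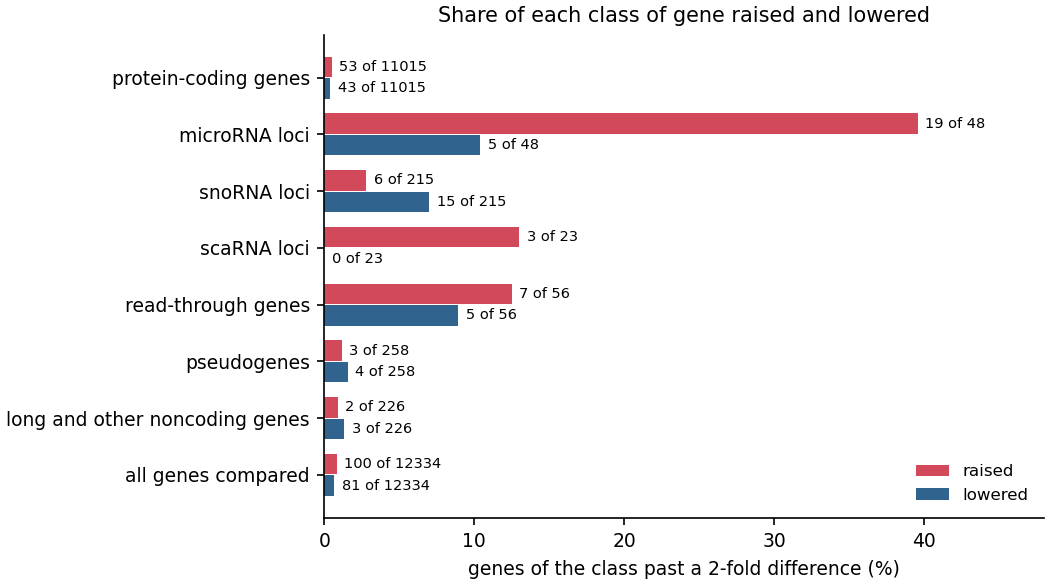
Percentage of the compared genes of each class that were raised (red) or lowered (blue) over 2-fold, with the counts beside the bars. MicroRNA loci show 39.6% raised and 10.4% lowered, scaRNA loci 13.0% and 0%, read-through genes 12.5% and 8.93%, and all genes compared 0.811% and 0.657%. Of the 19 raised microRNA loci, 5 were at 1 FPKM or more in siControl.

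Small nucleolar and Cajal body RNAs were split. Of 215 snoRNA loci 6 were raised and 15 lowered, and of 23 scaRNA loci, whose RNAs guide the modification of spliceosomal RNAs, 3 were raised and none lowered. Their medians were near 0, -0.0013 and 0.02. The raised snoRNAs of the H/ACA class, which guide pseudouridylation, were SNORA80B at 2.93 FPKM in siSNRNP40 and 0.294 FPKM in siControl (3.31), SNORA77 at 3.32 and 0.811 FPKM (2.03), SNORA70G at 5.89 and 1.72 FPKM (1.78), SNORA79 at 10.9 and 4.003 FPKM (1.44) and SNORA47 at 3.42 and 1.64 FPKM (1.06). SNORD105, of the C/D class, which guides methylation, was listed at 3.54 and 1.12 FPKM (1.66). The scaRNA members were SCARNA14 at 2.95 and 0.695 FPKM (2.09), SCARNA3 at 3.35 and 1.41 FPKM (1.25) and SCARNA9L at 15.99 and 6.24 FPKM (1.36). VTRNA1-3, a vault RNA, was listed at 4.29 and 1.97 FPKM (1.12), and its neighbour in the family VTRNA1-2 at 0 and 2.37 FPKM. The median level of compared small RNA loci was 19.05 FPKM, and that of the 29 raised ones 2.07 FPKM.

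The genes around the raised small RNA loci stayed under the threshold. GENCODE places 14 of the 29 in introns and 6 in exons of a gene on the same strand, 4 outside such genes, and 5 had no model. For 18 loci the surrounding gene had a value, and its log2 ratio ran from -0.35 to 0.54 with a median of -0.05. None of these genes was a member. The same held for all 204 compared small RNA loci whose surrounding gene had a value, several of which share a gene. The count of 0 therefore does not set the raised loci apart. MIR590 lies in an intron of EIF4H, a translation factor gene listed at 203 FPKM in siSNRNP40 and 209 FPKM in siControl (-0.04). MIR636 overlaps an exon of SRSF2, a splicing factor gene listed at 53.9 and 57.6 FPKM (-0.10), and was itself listed at 3.40 and 0.724 FPKM (2.23). MIR3607 overlaps an exon of COX7C, a respiratory chain gene listed at 591 and 634 FPKM (-0.10), and was listed at 3.41 and 0.376 FPKM (3.18). SNORA80B lies in an intron of ODC1, the ornithine decarboxylase gene, listed at 110 and 96.7 FPKM (0.19). SNORD105 lies in PPAN, which had the highest ratio of these genes, at 13.4 and 9.25 FPKM (0.54).

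**Figure D5:**
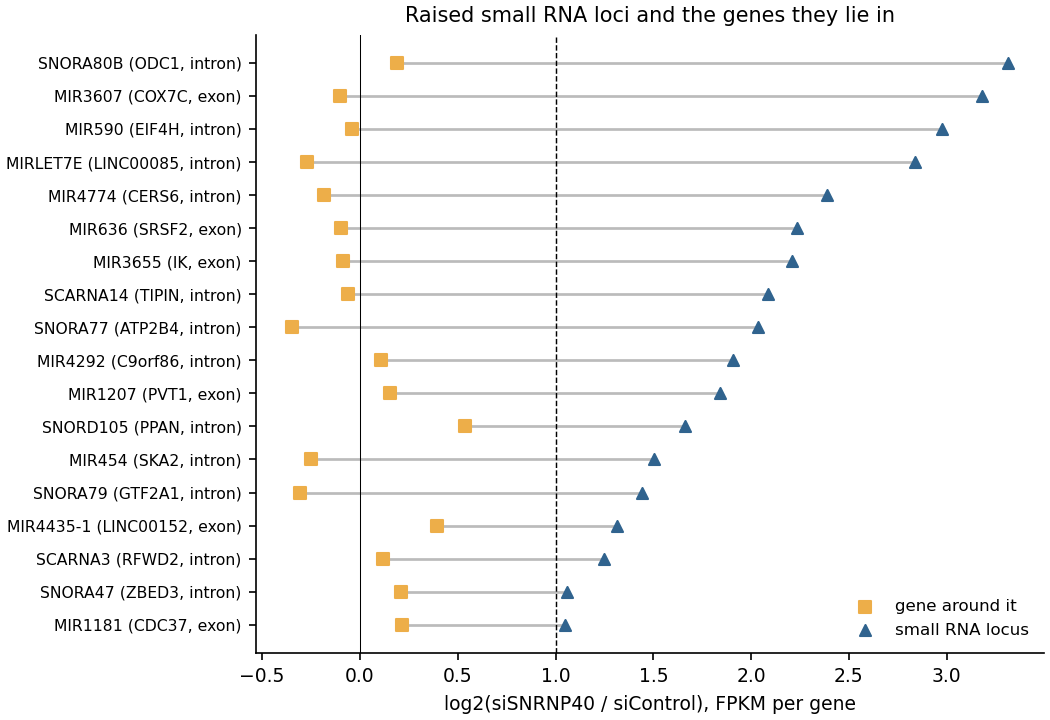
Log2 ratio of siSNRNP40 to siControl for 18 raised small RNA loci (triangles) and for the gene each lies in (squares), with that gene and the position in brackets. The loci lie above the dashed threshold of 1 by choice, and the surrounding genes lie between -0.35 and 0.54.

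Read-through genes, whose transcripts run from a gene into the next, were raised in 7 of 56 compared (12.5%) and lowered in 5 (8.93%). MUTED-TXNDC5 was listed at 9.59 FPKM in siSNRNP40 and 1.99 FPKM in siControl (log2 ratio 2.27), while MUTED was at 25.5 and 24.6 FPKM (0.05) and TXNDC5, a disulfide isomerase gene, at 153 and 159 FPKM (-0.05). HEATR8-TTC4 was listed at 11.05 and 4.53 FPKM (1.29) and TTC4 at 13.5 and 16.9 FPKM (-0.33). TMEM56-RWDD3 was listed at 5.23 and 2.17 FPKM (1.27), and TMEM56 (-0.60) and RWDD3 (-0.32) lay below 0. TRIM39-RPP21 was listed at 3.27 and 1.12 FPKM (1.55), all from 1 of its 14 transcripts, and TRIM39 (0.10) and RPP21 (-0.34) stayed under the threshold. ANKHD1-EIF4EBP3 (1.39), C1QTNF3-AMACR (1.57) and TEN1-CDK3 (1.07) were all under 3 FPKM in both conditions. AMACR was at -0.51 and CDK3 at -1.28. A read-through gene shares most of its exons with the genes it joins, so its value depends on how fragments were divided between them.

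Noncoding and copied loci made up the rest. BCYRN1, the brain cytoplasmic RNA BC200 with an Alu-like part, was the member with the highest level, at 346 FPKM in siSNRNP40 and 171 FPKM in siControl (log2 ratio 1.02), and has many partial copies in the genome. LOC401010 was listed at 6.63 and 0.623 FPKM (3.41). LOC100128573 was listed at 11.6 and 5.70 FPKM (1.02), the pseudogene APOC1P1 at 5.71 and 2.70 FPKM (1.08), SNX29P1 at 1.69 and 0.633 FPKM (1.42), and MTRNR2L4, a nuclear copy of mitochondrial sequence, at 2.65 and 1.07 FPKM (1.31). The antisense genes UCKL1-AS1 (1.31) and AKIRIN2-AS1 (1.76) were both under 3 FPKM in both conditions. Whether the authors' counting used the strand is not given in the sources used here, so fragments of these genes and of their partners on the opposite strand cannot be told apart. LOC100506241, LOC729970 and LOC553103 had log2 ratios of 1.21, 1.06 and 1.02.

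Within genes, 71 members had a single listed transcript and 29 had several. In 19 of the 29 no transcript was lower in siSNRNP40. SAA2 was carried by 1 of its transcripts, at 27.2 and 8.06 FPKM, while the other stood at 1.45 and 1.73 FPKM. DOLPP1 was higher in both of its transcripts, at 11.2 and 4.13 FPKM and at 5.44 and 2.98 FPKM. In ALKBH2 the transcript with the largest share in siSNRNP40, at 9.47 FPKM, was listed at 0 in siControl. DMKN, which encodes the epidermal protein dermokine, had 17 listed transcripts, of which 4 were higher, 2 lower and 11 at 0 in both conditions, for sums of 1.54 and 0.546 FPKM (1.497).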

How the data were processed

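RNA of 2 siControl and 2 siSNRNP40 libraries was analysed as 1 table. Per the paper's methods and the processing notes, adaptors were removed by the authors with cutadapt 1.2.1, alignment to hg19 used TopHat2 2.0.8, and merged Cufflinks assemblies went into Cuffdiff 2.0.2. The deposited FPKM values are the authors' Cuffdiff estimates per transcript, normalized by transcript length and mapped fragments and pooled over the 2 libraries of a condition, so depth and replicate error are unknown. The table also holds the authors' fold changes, p-values and q-values, which were not used.

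FPKM was summed over the transcripts of each symbol, and log2 ratios were taken without a pseudocount for genes with a mean of at least 1 and both sums above 0. Isoform estimates share fragments between overlapping transcripts and near copies, so their single values are less certain than sums. Symbols were matched to GENCODE 44 on GRCh37, whose coordinates are those of hg19 (87 of 100 members), and classes, older symbols, promoters and microRNAs came from RefSeq (GRCh38.p14). For a small RNA inside several genes the gene with the highest siControl value was taken.

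Values were given for the 25 members with the largest ratios, the 10 with the highest means, members on 26 gene lists and the 5 genes nearest the threshold on each side, and for other members as examples. The values of 1 member and 1 list gene are not reported here. The members and lists were chosen with earlier results of these data known. No test was run: the FPKM columns give 1 pooled value per condition, and the authors' p-values and q-values were left aside. The alternatives changed the filter, pseudocount, scaling, summing of transcripts and threshold. Python 3.11.15, numpy 2.4.6 and pandas 2.3.3 were used.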

Additional observations from a re-analysis of the deposited data

Results flagged for a closer look

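MIR3652 was the only locus listed at 0 in siControl with a mean of at least 1 FPKM, at 27.3 FPKM in siSNRNP40. It has no finite ratio and is not among the raised genes. The reverse, a value of 0 in siSNRNP40, was seen for MIR486 (2.46 FPKM in siControl), SNORA37 (2.13 FPKM), SNORD48 (3.63 FPKM) and VTRNA1-2 (2.37 FPKM). None of these differences was tested.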

How the results depend on the processing

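The number of raised genes depended on the filter and the pseudocount. Against 100 genes, 25 were raised with a mean of at least 5 FPKM, 56 with both conditions at 1 FPKM or more, 43 with 1 FPKM added to both sums and 30 at a 3-fold threshold, all of them among the 100. Without a filter on the mean 1036 genes were raised, and with the most expressed transcript of each gene 270, of which 89 were members. Centring on the median left all 100, upper-quartile scaling 79, and genes with a single listed transcript 71. Of the 11 members on the immune lists, 8 stayed past the threshold with the pseudocount and 6 were left at a mean of at least 5 FPKM. The share of raised genes with a single exon moved from 31.4% to 9.09% at a mean of at least 5 FPKM and to 44.1% among genes with a single listed transcript. The median log2 ratio of interferon-stimulated genes stayed between 0.14 and 0.25. No member changed sign with the most expressed transcript, where that gave a value (98 members). The pseudocount cannot change the sign of a ratio, and centring on a median of 0.0034 cannot change that of a log2 ratio above 1. With the pseudocount 57 members fell to the threshold or under it. Requiring 1 or 2 FPKM in both conditions, chosen after seeing the data, left 5 and 1 of the 19 microRNA loci. The cause of these differences was not tested beyond the construction of each alternative. No paired analysis was possible because each condition has 1 pooled value, and leaving out each library was not run for the same reason.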
